A study of Mus musculus with 12 samples.

Results

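The mitochondrial ribosomal protein genes were taken as the genes whose mouse symbol begins with Mrpl or Mrps and a digit, pseudogenes left out, and whose level reached at least 1 TPM (transcripts per 1000000) in at least 3 of 12 libraries. Of 21959 genes listed, 78 carried such a symbol and 76 passed the level threshold. All 76 were among the 12326 genes tested. The genes just outside the threshold were Mrpl33, at 0.242 to 1.79 TPM and at or above 1 TPM in 2 libraries, and Mrpl53, listed at 0 in all 12 libraries. The member with the lowest mean, Mrps25, averaged 9.93 TPM over the 12 libraries, and the highest, Mrps21, averaged 208 TPM.

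Mitochondria translate a small set of mRNAs of their own genome, all for subunits of the respiratory chain and the ATP synthase, on a ribosome apart from that of the cytosol. Its rRNAs come from mitochondrial DNA, but every one of its proteins is encoded in the nucleus, made in the cytosol and imported. Some of these proteins have bacterial homologues and others are found only in mitochondrial ribosomes, and mutations in many of them cause disease of brain, heart or liver in humans. The 76 genes comprised 49 of the large subunit (28 with bacterial homologues and 21 specific to mitochondria), 26 of the small subunit (16 and 10) and Mrps36, which keeps a ribosomal name but is now regarded as a subunit of the oxoglutarate dehydrogenase complex. Mrps30 and Mrps18a were counted with the large subunit, where their proteins sit despite their symbols.

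RNA came from C8-D1A, an established mouse astrocyte line, in 4 groups of 3 libraries, all collected after 24 h. One treated group was held under 15% CO2, one received 20 mM lactic acid, and one was grown with NaHCO3 reduced to 0.2 g/L (low-NaHCO3 medium). Control cells were kept in standard culture under 5% CO2. No genetic change is labelled in any group, the pH reached is not given, and nothing says if replicate libraries stem from separate cultures, so p-values measure the spread between these libraries, which may be technical. TPM are shares of a library, so fewer transcripts per cell and fewer cells expressing a gene cannot be told apart, and the depth of the libraries is unknown.

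Control replicate 1 stood apart from the other 11 libraries. All 8 neuron markers were highest in it (summed TPM 2222, against 92.2 to 145 elsewhere), as were all 6 oligodendrocyte markers (909 against 35.2 to 76.8), all 4 red blood cell markers (349 against 0.221 to 2.74), all 4 endothelial markers (62.1 against 15.98 to 19.4), 5 of 6 microglia markers (152 against 62.8 to 95.3) and 9 of 12 astrocyte markers (3112 against 1481 to 2798). Of the 12 astrocyte markers, 6 (Slc1a2, Slc1a3, Aqp4, Aldh1l1, Gja1 and Aldoc) were under 1 TPM in each of the other 11 libraries. Results are therefore given with and without control 1. In most members, lactic acid 3 and 15% CO2 3 lay below both other libraries of their groups. Over all genes tested, 15% CO2 1 and 3 were the closest pair of their group (Spearman correlation 0.9954). The value was 0.9942 for 15% CO2 1 and 2 and 0.9902 for 15% CO2 2 and 3.

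Promoter windows of 4 members on which the low-NaHCO3 result turns are shown here, for the strongest fall in each subunit (Mrpl41 and Mrps27), for a gene that fell in 2 treatments (Mrps12) and for the strongest rise (Mrps31). They run from 250 bases before to 50 after the start, 5′ to 3′ on the strand of the gene, from RefSeq on GRCm38.p6, an older build than that of the deposited table. Capitals mark matches, on either strand, to the core motifs of ETS factors such as GABP (CCGGAAG) and of YY1 (AAGATGG). The core of NRF1 (GCATGCG), the third factor searched, was not in these 4 windows. The 3 motifs do not overlap one another in the matches shown.
Mrpl41 promoter (chr2:24975049-24975348, minus strand): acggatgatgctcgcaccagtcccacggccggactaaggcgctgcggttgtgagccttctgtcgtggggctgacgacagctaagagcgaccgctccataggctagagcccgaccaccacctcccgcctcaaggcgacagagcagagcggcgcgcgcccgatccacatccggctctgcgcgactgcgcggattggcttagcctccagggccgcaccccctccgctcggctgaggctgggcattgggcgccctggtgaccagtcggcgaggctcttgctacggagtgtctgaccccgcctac
Mrps27 promoter (chr13:99344536-99344835, plus strand): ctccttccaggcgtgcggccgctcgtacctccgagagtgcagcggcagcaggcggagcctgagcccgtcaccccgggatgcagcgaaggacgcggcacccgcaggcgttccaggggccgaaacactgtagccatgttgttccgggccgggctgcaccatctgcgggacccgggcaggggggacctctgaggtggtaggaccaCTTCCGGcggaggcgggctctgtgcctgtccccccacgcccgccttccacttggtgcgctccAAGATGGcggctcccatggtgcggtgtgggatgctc
Mrps12 promoter (chr7:28741772-28742071, minus strand): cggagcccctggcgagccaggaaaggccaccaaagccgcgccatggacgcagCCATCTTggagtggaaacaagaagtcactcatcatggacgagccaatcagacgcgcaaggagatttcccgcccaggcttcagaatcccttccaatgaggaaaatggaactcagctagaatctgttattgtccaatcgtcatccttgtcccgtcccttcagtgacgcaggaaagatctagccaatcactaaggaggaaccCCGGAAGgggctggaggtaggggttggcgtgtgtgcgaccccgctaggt
Mrps31 promoter (chr8:22411090-22411389, plus strand): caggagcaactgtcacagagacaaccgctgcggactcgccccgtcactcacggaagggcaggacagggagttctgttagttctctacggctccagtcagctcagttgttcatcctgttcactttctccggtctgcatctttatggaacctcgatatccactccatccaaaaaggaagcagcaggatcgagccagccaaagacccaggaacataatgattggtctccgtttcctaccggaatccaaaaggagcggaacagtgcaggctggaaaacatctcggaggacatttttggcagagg
The Mrps27 and Mrps12 windows each held 1 ETS match and 1 YY1 match, and the Mrpl41 and Mrps31 windows held no match. RefSeq promoter windows were found for 67 of the 76 members. Of these 67, 24 held the ETS core (35.8%, against 9.9% of all genes in the promoter table), 13 the YY1 core (19.4% against 7.3%) and 7 the NRF1 core (10.4% against 4.0%). At least 1 of the 3 was present in 36 members, or 53.7%, against 19.3% of genes. The promoter table holds 27025 genes whatever their level in these cells, whereas the members were chosen by level. The shares among the genes tested were not computed, so a trait particular to the members cannot be read from these values. A match is a run of letters and was not tested as a binding site.

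Taken over the whole set, levels were lower in the treated libraries than in controls 2 and 3. The summed TPM of the 76 genes was 3374, 3421 and 3446 in low-NaHCO3 medium, 3741, 3852 and 3293 under 15% CO2, and 3757, 3654 and 2814 with lactic acid, against 3706 in control 1, 4425 in control 2 and 4361 in control 3. Each of the 9 treated libraries lay below controls 2 and 3, but 3 of them lay above control 1. As a share of all TPM, the set made up 0.281% (lactic acid 3) to 0.442% (control 2). The group means were 3414 ± 36.7 in low-NaHCO3 medium, 3629 ± 296 under 15% CO2 and 3408 ± 517 with lactic acid, against 4164 ± 398 in controls (SD, n = 3 each).

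**Figure D1:**
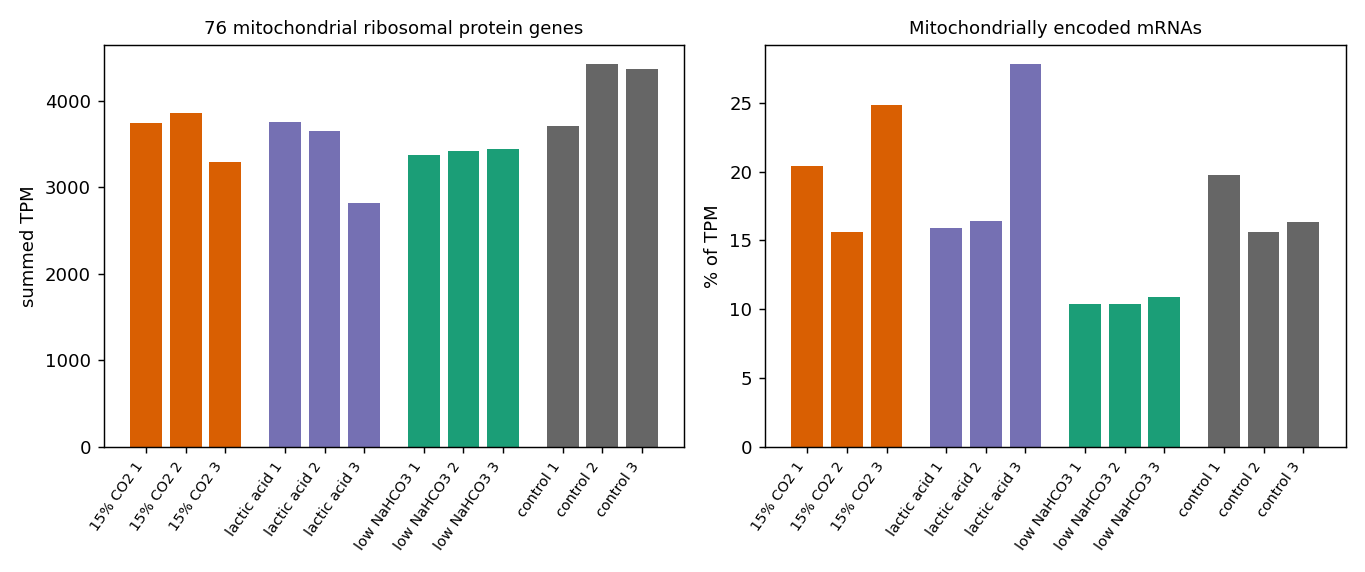
Bars give, for each of the 12 libraries, the summed TPM of the 76 genes (left) and the percentage of all TPM in mitochondrially encoded mRNAs (right), with treated groups left of control. Lactic acid 3 has the lowest sum, 2814 TPM, and the highest mitochondrial share, 27.8%, and the low-NaHCO3 libraries have the lowest mitochondrial shares.

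The ratio of summed large-subunit to summed small-subunit TPM was 2.36 to 2.48 under 15% CO2, 2.41 to 2.54 with lactic acid and 2.52 to 2.69 in low-NaHCO3 medium, against 2.32 to 2.43 in controls. The low-NaHCO3 range lay above the control range, and the other 2 ranges overlapped it. The mean level was highest in control for 52 of the 76 genes, in low-NaHCO3 medium for 18, and under 15% CO2 and with lactic acid for 3 each. The mean was lowest in low-NaHCO3 medium for 33 genes, with lactic acid for 23, under 15% CO2 for 16 and in control for 4.

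Within groups, single libraries moved many members together. Lactic acid 3 was below both other lactic acid libraries in 70 of 76 members (92.1%, against 58.6% of all genes tested), and 15% CO2 3 was below the other 2 of its group in 57 (75.0%, against 54.9%). Control 1 was below controls 2 and 3 in 52 (68.4%, against 49.4%). These 3 libraries held 27.8%, 24.8% and 19.7% of their TPM in mitochondrially encoded mRNAs, the highest share of each group, and their levels rose with transcript length more than those of the other libraries, with slopes of 0.08, 0.04 and 0.08 in log2 level, relative to the mean library, per doubling of length. Fits without these libraries are given below, and what set them apart was not tested.

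**Figure D2:**
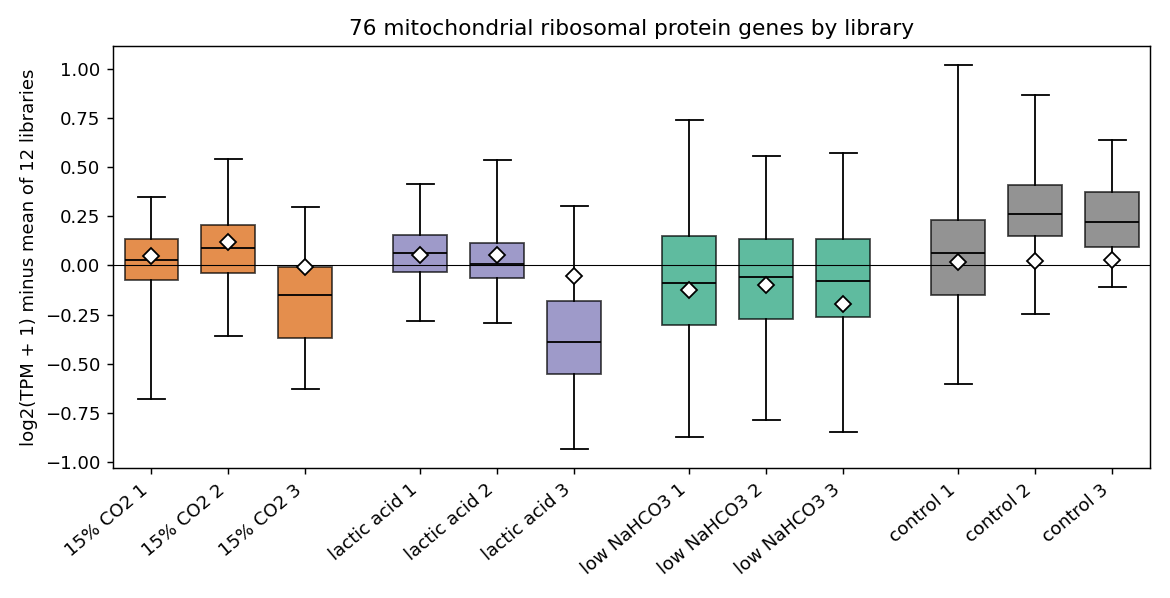
Boxes show, for each library, the 76 genes' log2(TPM + 1) minus each gene's mean over the 12 libraries (line, median; box, quartiles; whiskers, lowest and highest gene), and diamonds the median of all genes tested. Controls 2 and 3 have the highest medians, 0.26 and 0.22, and lactic acid 3 the lowest, -0.39, while the diamonds stay between -0.20 and 0.12.

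Low-NaHCO3 medium gave a mixed response, with more members lower than higher. In the fit of all 12 libraries 32 members fell and 5 rose at a limma adjusted p under 0.05 (all 76 tested). Over all 12326 genes, 35.0% fell and 19.8% rose. The members' share of falls, 42.1%, was near that background, and their share of rises, 6.58%, was below it. Without control 1, 36 fell and 6 rose, against 40.9% and 22.7% of 12226 genes, and the 37 members of the first fit were all called again. The median log2 change of the 76 was -0.26, against -0.20 for all genes tested (-0.33 against -0.17 without control 1).

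The median change in this comparison depended on the scaling of the libraries. Median-of-ratios scaling moved the median of all genes in low-NaHCO3 medium to -0.02 and that of the members to -0.07, with 21 members called lower and 13 higher. With that scaling 26.5% of all genes fell and 28.9% rose. The median of the members stayed below that of all genes under both scalings. All 3 low-NaHCO3 libraries lay below the range of the 3 controls in 36 of 76 members and above it in 12, against 40.2% and 23.8% of all genes.

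Large-subunit genes gave 18 falls and 3 rises among 49, and small-subunit genes 13 falls and 2 rises among 26. By origin, 8 of 28 large-subunit genes with bacterial homologues fell and 2 rose, 10 of 21 specific to mitochondria fell and 1 rose, 8 of 16 small-subunit genes with homologues fell and none rose, and 5 of 10 specific ones fell and 2 rose. The median log2 changes of these 4 classes were -0.19, -0.25, -0.27 and -0.44. Differences between classes were not tested.

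**Figure D3:**
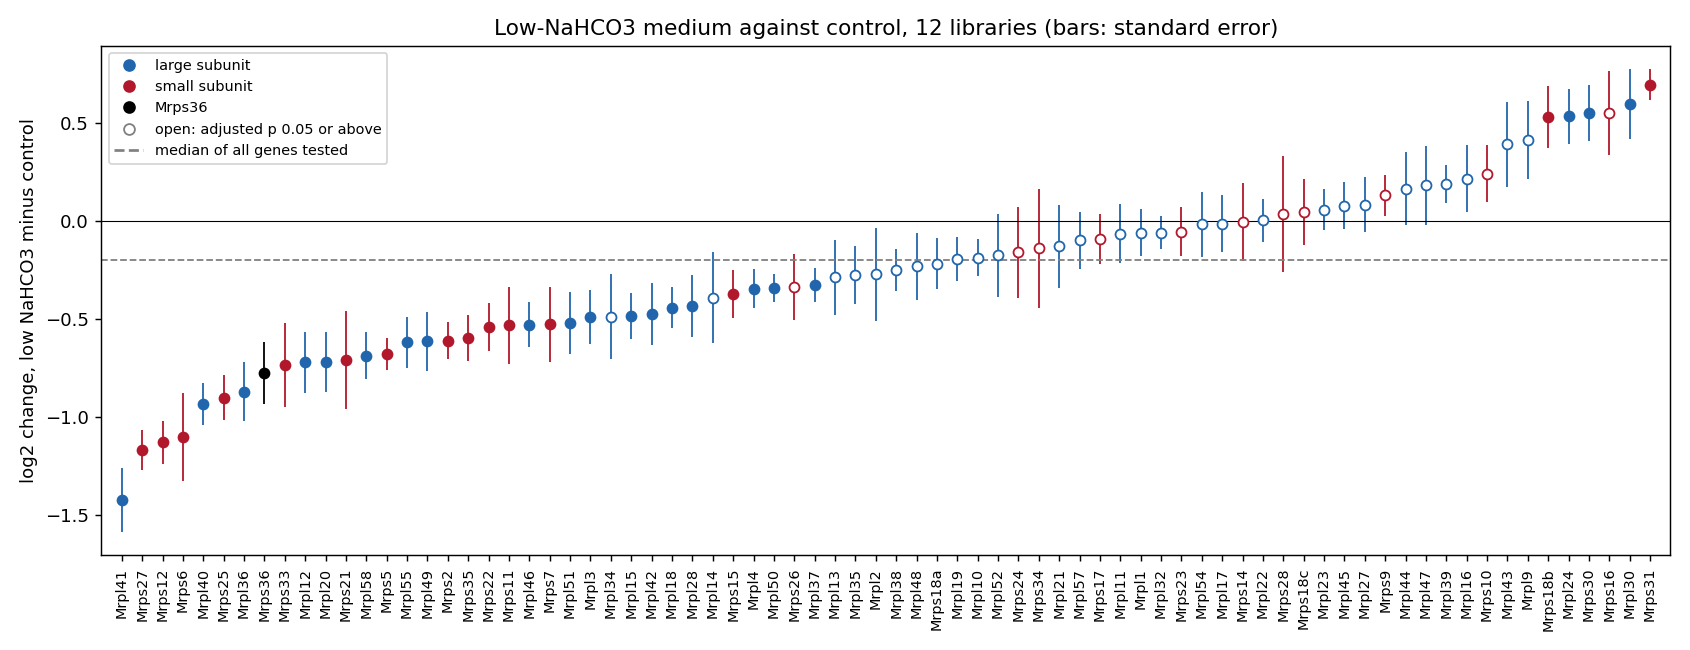
Log2 change in low-NaHCO3 medium minus control (y axis; bars, standard error of the limma fit of 12 libraries) for each of the 76 genes, sorted along the x axis, with filled points at an adjusted p under 0.05. Values run from -1.43 for Mrpl41 to 0.70 for Mrps31, and the dashed line at -0.20 is the median of all genes tested.

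Mrpl41, a large-subunit protein specific to mitochondria that has also been described as a partner of BCL2, had the strongest fall. It stood at 27.8, 29.6 and 29.1 TPM in low-NaHCO3 medium, against 106, 70.9 and 65.8 TPM in controls 1, 2 and 3. The groups did not overlap, and control 1 was far above the other controls. The log2 change was -1.43 ± 0.16 (SE; limma adjusted p = 4.09e-05), and -1.22 ± 0.11 without control 1. Mrpl40, whose human counterpart lies in the region lost in DiGeorge syndrome, had 30.5, 29.0 and 32.6 TPM in low-NaHCO3 medium, against 54.4, 63.7 and 60.9 TPM in controls, with no overlap (-0.94 ± 0.11; adjusted p = 4.05e-05). Mrpl36, homologue of the small bacterial protein L36, which joins the large subunit late, had 31.8, 43.7 and 32.6 TPM in low-NaHCO3 medium, against 60.6, 68.9 and 69.4 TPM in controls. Its groups did not overlap either (-0.87 ± 0.15; adjusted p = 0.000626).

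In the small subunit the strongest falls were those of Mrps27, a pentatricopeptide-repeat protein that binds RNA, and Mrps12, homologue of bacterial S12 at the decoding centre. Mrps27 had 17.6, 19.1 and 16.2 TPM in low-NaHCO3 medium, against 35.2, 45.1 and 43.0 TPM in controls (-1.17 ± 0.10; limma adjusted p = 6.56e-06). Mrps12 had 19.9, 22.1 and 24.9 TPM in low-NaHCO3 medium, against 52.6, 46.9 and 50.2 TPM in controls (-1.13 ± 0.11; adjusted p = 1.23e-05). In both genes the lowest control was above the highest treated library. Mrps6, homologue of bacterial S6, had 20.4, 17.0 and 16.01 TPM in low-NaHCO3 medium, against 31.2, 48.0 and 40.2 TPM in controls, again without overlap (-1.10 ± 0.23; adjusted p = 0.00184). Mrps25, a small-subunit protein specific to mitochondria, had 6.75, 6.50 and 6.05 TPM in low-NaHCO3 medium, against 14.1, 12.1 and 12.5 TPM in controls (-0.90 ± 0.11; adjusted p = 7.63e-05). Mrps36 had 45.9, 40.2 and 55.1 TPM in low-NaHCO3 medium, against 76.3, 78.7 and 87.3 TPM in controls (-0.78 ± 0.16; adjusted p = 0.00188).

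The value of Mrps25 is uncertain. Of its 50-base stretches in the annotated transcripts, 68.2% also occurred in another gene, mainly Nr2c2, a nuclear receptor gene that shares exonic positions with it on the other strand. Nr2c2 was at 5.94, 7.22 and 5.74 TPM in low-NaHCO3 medium, against 14.9, 10.2 and 10.3 TPM in controls, so it was lower in the same libraries. Whether the reads were counted by strand is not given in the sources used here. Mrps6 shares exonic positions with 2 genes on the same strand, Gm49711 and Slc5a3, a myo-inositol transporter gene. Of its stretches 17.3% were shared with other genes, most often with Gm49711, whose level is not given here. Slc5a3 was at 62.1 to 65.8 TPM in low-NaHCO3 medium, against 39.7, 62.8 and 60.7 TPM in controls. Mrps12 has the start of Sars2, the mitochondrial seryl-tRNA synthetase, within 500 bases on the other strand and shares no exonic position with it; Sars2 fell as well (-0.68 ± 0.14; limma adjusted p = 0.00178).

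Among the members that rose, Mrps31, a small-subunit protein specific to mitochondria, changed most. It had 46.2, 50.6 and 48.7 TPM in low-NaHCO3 medium, against 28.8, 28.5 and 31.5 TPM in controls. The lowest treated library was above the highest control, and control 1 lay among the controls (0.70 ± 0.08; limma adjusted p = 3.38e-05; 0.68 ± 0.08 without control 1). Mrpl30, homologue of bacterial L30, had 112, 107 and 113 TPM in low-NaHCO3 medium, against 58.6, 83.1 and 79.6 TPM in controls (0.60 ± 0.18; adjusted p = 0.0153). Mrps30, a large-subunit protein also named for a link to programmed cell death, had 26.3, 26.1 and 27.1 TPM in low-NaHCO3 medium, against 15.4, 19.9 and 18.4 TPM in controls (0.55 ± 0.14; adjusted p = 0.00739). In both genes control 1 was the lowest control and the groups did not overlap.

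The other 2 members that rose share much sequence with other genes. Mrpl24, homologue of bacterial L24 near the exit tunnel, had 139, 146 and 131 TPM in low-NaHCO3 medium, against 76.2, 105 and 109 TPM in controls (0.53 ± 0.14; limma adjusted p = 0.00857). Of its 50-base stretches 23.3% occurred in other genes, mainly Rrnad1 on the other strand, which was at 31.0, 28.3 and 29.5 TPM in low-NaHCO3 medium, against 21.1, 19.2 and 18.0 TPM in controls. Mrps18b had 52.3, 42.4 and 49.2 TPM in low-NaHCO3 medium, against 26.5, 37.1 and 35.9 TPM in controls (0.53 ± 0.16; adjusted p = 0.0159), with 30.2% of stretches shared with 2 predicted genes. Among the 66 members with at most 20% of stretches shared, 31 fell and 3 rose. Mrps16, homologue of bacterial S16, had 30.5, 26.1 and 27.0 TPM in low-NaHCO3 medium, against 20.0, 18.4 and 17.7 TPM in controls, and missed the threshold (0.55 ± 0.22; adjusted p = 0.0501) unless control 1 was left out (0.60 ± 0.24; adjusted p = 0.0443).

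**Figure D4:**
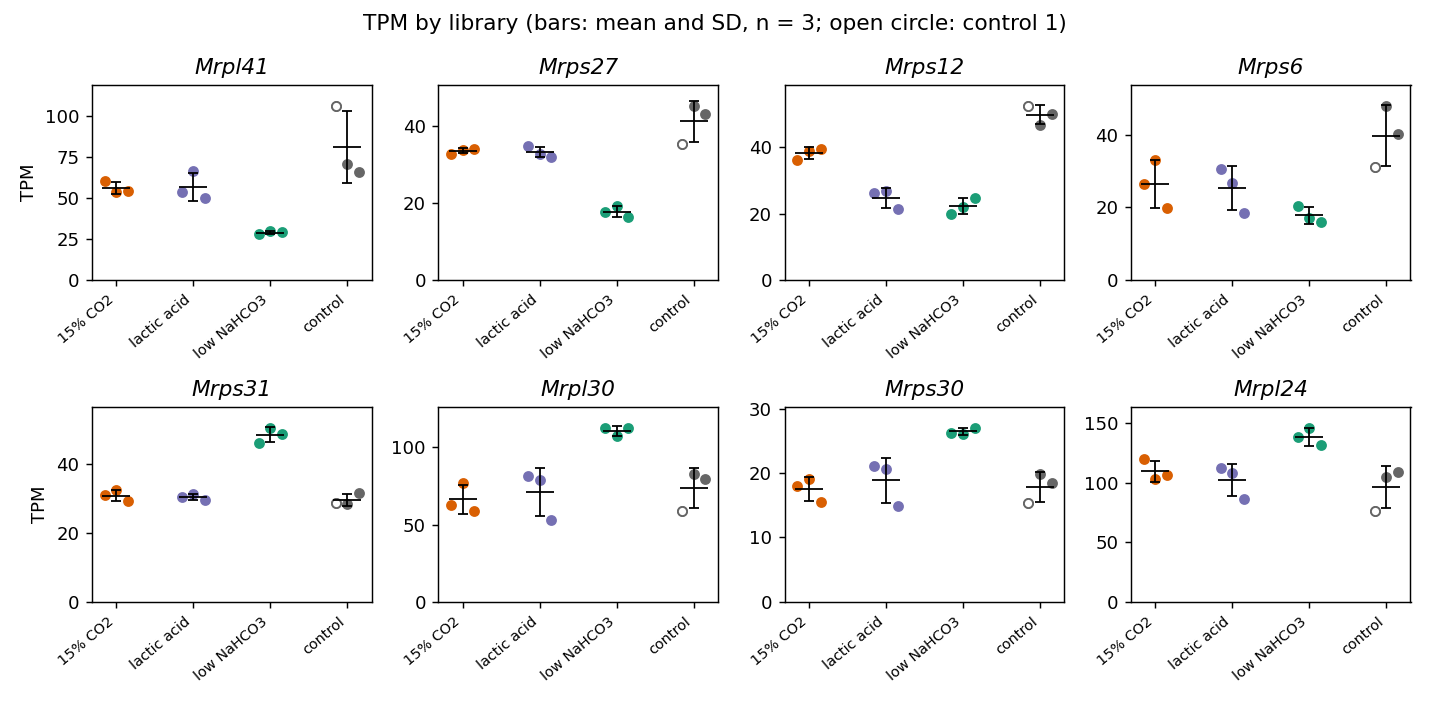
TPM of 4 genes that fell (top row) and 4 that rose (bottom row) in low-NaHCO3 medium, 1 point per library, with mean and SD of 3 libraries per group and control 1 as an open circle. In each panel the 3 low-NaHCO3 libraries lie outside the range of the 3 controls, and in all but those of Mrps12 and Mrps6 they also lie outside the range of all 9 other libraries.

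The paralogous trio that shares an ancestral S18 protein did not move as one. Mrps18b was higher, as given above. Mrps18a, of the large subunit, had a log2 change of -0.22 ± 0.13 (limma adjusted p = 0.171), and Mrps18c, the member of the small subunit nearest to bacterial S18, had 0.04 ± 0.17 (adjusted p = 0.836). The differences between the 3 changes were not tested. At the stalk of the large subunit, where translation factors bind, Mrpl12 fell, with 90.5, 100 and 87.1 TPM in low-NaHCO3 medium, against 126, 174 and 164 TPM in controls (-0.72 ± 0.16; adjusted p = 0.00259). Mrpl10, which holds Mrpl12 to the ribosome, was at 69.4 to 69.5 TPM in low-NaHCO3 medium, against 71.5 to 86.7 TPM in controls, without overlap but short of the threshold (-0.19 ± 0.09; adjusted p = 0.111) unless control 1 was left out (-0.26; adjusted p = 0.0188). Mrpl11, at the base of the stalk, had -0.07 ± 0.15 (adjusted p = 0.728).

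Among the other large-subunit genes of known role, Mrpl58, a peptidyl-tRNA hydrolase that frees stalled ribosomes, fell (12.1, 15.2 and 14.0 TPM in low-NaHCO3 medium, against 25.4, 22.3 and 20.7 TPM in controls; -0.69 ± 0.12; limma adjusted p = 0.000694). Mrpl3, near the peptidyl transferase centre, fell by 0.49 on the log2 scale (adjusted p = 0.0118). Mrpl45, which anchors the ribosome to the inner membrane, Mrpl44, related to RNase III, and Mrpl47 had log2 changes of 0.08, 0.16 and 0.18 and did not pass the test. In the small subunit, Mrps2 fell (39.1, 39.3 and 36.2 TPM in low-NaHCO3 medium, against 52.3, 60.6 and 64.6 TPM in controls; -0.61 ± 0.09; adjusted p = 0.000295). Mrps22, mutated in a human cardiomyopathy, fell by 0.54 and Mrps7 by 0.53 on the log2 scale (adjusted p = 0.00352 and 0.0357). Mrps34, with 71.8% of its stretches shared with other genes, had -0.14 ± 0.30 (adjusted p = 0.711).

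Of the 5 members with the highest mean TPM, Mrps21, Mrpl12, Mrpl49 and Mrpl28 fell and Mrpl24 rose. Mrps21, homologue of bacterial S21, had 151, 146 and 180 TPM in low-NaHCO3 medium, against 219, 272 and 293 TPM in controls (-0.71 ± 0.25; limma adjusted p = 0.032). Mrpl49 fell by 0.61 and Mrpl28 by 0.43 on the log2 scale. Of the 5 lowest, Mrps25 and Mrps35 fell (-0.90 and -0.60), and Mrps34, Mrpl48 and Mrpl32 (-0.14, -0.23 and -0.06) did not pass the test. The call of Mrps35 was lost with quantile normalization (-0.13; adjusted p = 0.546). Without control 1, the falls named so far were -0.9997 for Mrpl40, -0.94 for Mrpl36, -0.86 for Mrpl12 and -0.61 for Mrpl58 in the large subunit, and -1.27 for Mrps27, -1.09 for Mrps12, -1.26 for Mrps6, -0.84 for Mrps25, -0.70 for Mrps2 and -0.83 for Mrps21 in the small. The rises without it were smaller, at 0.44 for Mrpl30, 0.45 for Mrps30, 0.37 for Mrpl24 and 0.38 for Mrps18b (limma adjusted p = 0.035, 0.0136, 0.0112 and 0.0339). The calls of Mrps7, Mrps21, Mrpl28 and Mrps18b in the fit of 12 libraries were lost when single libraries were left out. Median-of-ratios scaling also ended those of Mrps7, Mrps21 and Mrpl28. With control 1 left out, the call of Mrpl30 was lost without any 1 low-NaHCO3 library, and that of Mrpl3 without low-NaHCO3 1 or 3. Of the members with a promoter window, 15 of 29 that fell, 1 of 5 that rose and 20 of 33 that were not called held at least 1 of the 3 motifs.

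Under 15% CO2 no member passed the test in the fit of 12 libraries, although 68 of the 76 log2 changes were negative. The median was -0.19, against 0.01 for all genes tested. Over all genes 1.28% rose and 0.0649% fell in this fit. All 3 libraries under 15% CO2 were below the range of the 3 controls in 22 members and above it in none, against 6.42% and 15.2% of all genes. Without control 1 the median was -0.28 (all genes, 0.03) and 3 members fell, while 5.82% of genes rose and 1.56% fell. Without 15% CO2 3 the median was -0.12 (all genes, 0.04) and no member was called (92 of 12283 genes). Without 15% CO2 2 it was -0.26 (all genes, -0.02), and again no member was called (35 of 12263 genes). Without both control 1 and 15% CO2 3, 2 members fell, while of all 12179 genes in that fit 487 rose and 67 fell. With control 1 and lactic acid 3 left out instead, 20 members fell, while of all 12179 genes 1190 rose and 781 fell. A fit of only the 2 groups compared called no member and no gene.

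The 3 genes were Mrpl20, Mrpl18 and Mrps27. Mrpl20, homologue of bacterial L20 in early assembly of the large subunit, had 67.1, 72.1 and 57.1 TPM under 15% CO2, against 78.2, 101 and 103 TPM in controls (-0.64 ± 0.15 without control 1; limma adjusted p = 0.0258). Mrpl18, which contacts the structural RNA of the central protuberance, had 88.5, 84.7 and 81.6 TPM under 15% CO2, against 91.9, 118 and 114 TPM in controls (-0.44 ± 0.08 without control 1; adjusted p = 0.0109). Mrps27 had 32.7, 33.6 and 34.0 TPM under 15% CO2, against 35.2, 45.1 and 43.0 TPM in controls (-0.39 ± 0.08 without control 1; adjusted p = 0.0167). In each gene the treated libraries lay below all 3 controls, with control 1 nearest to them. With all 12 libraries the 3 log2 changes were -0.51, -0.33 and -0.28 (adjusted p = 0.149, 0.163 and 0.225). Without both control 1 and 15% CO2 3 the call of Mrpl20 was lost (-0.55; adjusted p = 0.0696). Mrpl18 shares exonic positions with Tcp1 on the other strand.

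With lactic acid 5 members fell and none rose in the fit of 12 libraries, against 1.52% of all genes lower and 2.47% higher. The 5 were Mrps12, Mrpl20, Mrps25, Mrpl18 and Mrpl4. The median log2 change of the 76 was -0.30, against -0.04 for all genes, with 67 of 76 negative. Without control 1, 16 members fell and none rose, against 7.08% and 9.05% of genes, and the 5 were called again. All 3 lactic acid libraries were below the range of the 3 controls in 28 members and above it in none, against 13.4% and 15.0% of all genes.

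The count of 5 was not stable to single libraries. Without any 1 of the 3 lactic acid libraries, control 2, control 3, 15% CO2 1 or low-NaHCO3 1, 1 member was called. Calls over all genes dropped as well, from 492 of 12326 with 12 libraries. They numbered from 101 of 12290 (without lactic acid 1) to 342 of 12298 (without control 3) in these fits. The median was -0.15 without lactic acid 3 (all genes, 0.00), against -0.41 and -0.36 without lactic acid 1 and 2. Without both lactic acid 3 and control 1, 13 fell and the median was -0.19 (all genes, 0.03). Over all genes in that fit, 678 of 12179 fell and 1094 rose. In a fit of only the 2 groups no member and no gene was called.

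Mrps12 was the member that fell most. It had 26.2, 26.8 and 21.4 TPM with lactic acid, against 52.6, 46.9 and 50.2 TPM in controls (-0.99 ± 0.11; limma adjusted p = 0.00391; -0.95 ± 0.11 without control 1). All 3 treated libraries were well below all 3 controls, and lactic acid 1 and 2 were close to each other. Mrpl20 had 62.1, 61.0 and 44.7 TPM with lactic acid, against 78.2, 101 and 103 TPM in controls (-0.74 ± 0.15; adjusted p = 0.0285). Mrpl18 had 79.9, 80.2 and 74.5 TPM with lactic acid, against 91.9, 118 and 114 TPM in controls (-0.45 ± 0.10; adjusted p = 0.0395). Neither gene had treated libraries in the control range. Mrpl4, homologue of bacterial L4 at the exit tunnel, had 28.6, 27.0 and 25.8 TPM with lactic acid, against 37.1, 36.2 and 35.3 TPM in controls (-0.40; adjusted p = 0.0477). Mrps25, whose value is uncertain as given above, had 9.42, 9.34 and 7.50 TPM with lactic acid, against 14.1, 12.1 and 12.5 TPM in controls (-0.52 ± 0.11; adjusted p = 0.0343). Without control 1 the log2 changes of Mrpl20, Mrpl18, Mrpl4 and Mrps25 were -0.87, -0.56, -0.39 and -0.45, and each passed the test. In the fit of 12 libraries, the calls of Mrpl20, Mrpl18, Mrpl4 and Mrps25 were each lost when any 1 lactic acid library was left out, at adjusted p up to 0.136, and that of Mrps12 was not. Called in the fit without control 1 and not in that of 12 libraries were, among others, Mrps11, Mrps26 and Mrps6 (-0.75, -0.64 and -0.80; adjusted p = 0.0367, 0.0377 and 0.0348).

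**Figure D5:**
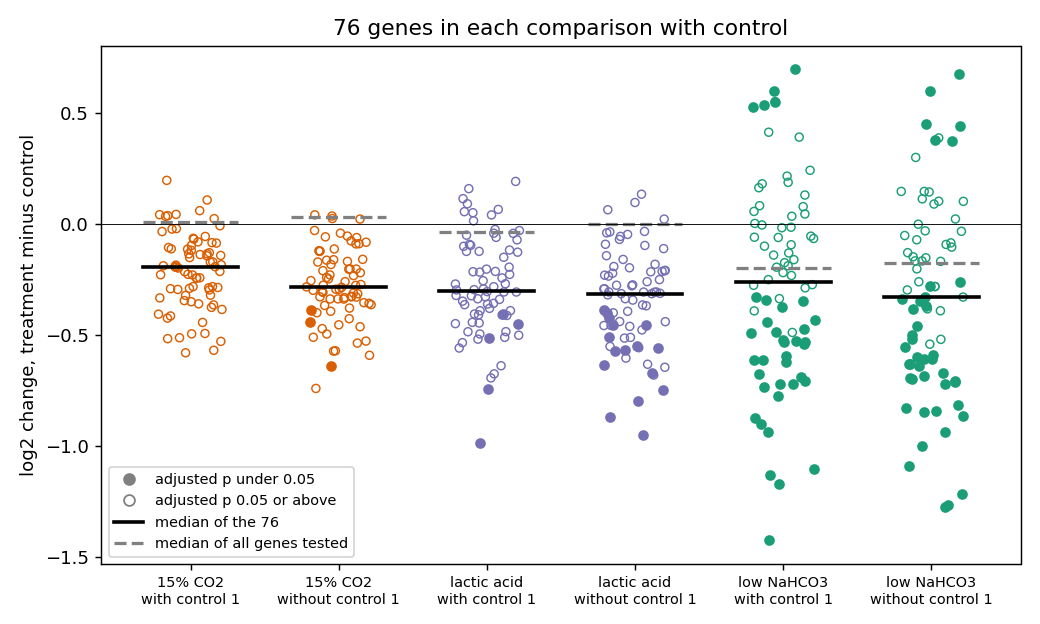
Log2 change, treatment minus control, of the 76 genes (1 point each, with horizontal scatter for legibility) with and without control 1, filled at a limma adjusted p under 0.05, with the median of the 76 (solid) and of all genes tested (dashed). Most points of 15% CO2 and lactic acid are negative (68 and 67 of 76 with all 12 libraries), and those of low-NaHCO3 medium spread from -1.43 to 0.70.

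The 3 comparisons with control use the same 3 control libraries, so their values are set side by side and no overlap is drawn from them. Mrpl41 had log2 changes of -1.43 in low-NaHCO3 medium, -0.50 under 15% CO2 and -0.49 with lactic acid. In the same order, Mrps12 had -1.13, -0.38 and -0.99 and Mrpl20 had -0.72, -0.51 and -0.74. Mrps31 had 0.70, 0.06 and 0.04. The range over the 76 genes was -1.43 to 0.70 in low-NaHCO3 medium, -0.58 to 0.20 under 15% CO2 and -0.99 to 0.19 with lactic acid.

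Compared directly, lactic acid and 15% CO2 libraries gave no call among the members (25 genes called over all 12326, 0.0325% higher and 0.170% lower with lactic acid). Without control 1, which enters this comparison only through the estimate of the spread, Mrps12 and Mrps25 were lower with lactic acid. In that fit 362 of 12226 genes were lower and 201 higher. Low-NaHCO3 medium against 15% CO2 gave 11 members higher and 20 lower, against 17.5% and 33.7% of all genes. Low-NaHCO3 medium against lactic acid gave 11 higher and 13 lower, against 17.8% and 30.8%. With median-of-ratios scaling the same comparisons gave 27 higher and 9 lower, and 25 higher and 6 lower, against 28.8% and 23.9%, and 27.7% and 22.7%, of all genes. The direction of the majority turned with the scaling, in all genes as in the members.

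The 3 members highest in low-NaHCO3 medium relative to 15% CO2 were Mrps16, with 30.5, 26.1 and 27.0 TPM in low-NaHCO3 medium, against 13.4, 17.3 and 11.2 TPM under 15% CO2 (0.97 ± 0.22; limma adjusted p = 0.00346), Mrpl43 (0.75 ± 0.22) and Mrpl30 (0.74 ± 0.18). The 3 lowest were Mrpl41 (-0.93 ± 0.16), Mrps27 (-0.89 ± 0.10) and Mrps25 (-0.77 ± 0.11). Relative to lactic acid the highest were Mrps16 (0.94 ± 0.22), Mrpl9 (0.76 ± 0.20) and Mrps18b (0.74 ± 0.16), and the lowest Mrpl41 (-0.94 ± 0.16), Mrps27 (-0.87 ± 0.10) and Mrpl40 (-0.68 ± 0.11). Each of these passed the test. Mrps12 was lower in low-NaHCO3 medium than under 15% CO2 (-0.75 ± 0.11; adjusted p = 0.000201), and its difference from lactic acid was -0.14 ± 0.11 (adjusted p = 0.299). Mrpl43 shares 31.6% of its stretches with other genes, mainly Twnk, the mitochondrial helicase gene on the other strand.

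Genes that serve the mitochondrial ribosome without an Mrp symbol were read from lists chosen with earlier results known. Their counts in low-NaHCO3 medium stand beside the 35.0% of all genes that fell and the 19.8% that rose (40.9% and 22.7% without control 1). In low-NaHCO3 medium 1 of 5 further subunit genes fell and none rose: Gadd45gip1, a large-subunit protein that also binds GADD45 proteins, averaged 0.763 ± 0.20 TPM in low-NaHCO3 medium and 2.73 ± 0.62 TPM in controls (SD, n = 3 each; -1.08 ± 0.24; limma adjusted p = 0.00352). Of 25 assembly factors 11 fell and 4 rose. Noa1, a GTPase of small-subunit assembly, averaged 9.52 ± 0.58 TPM in low-NaHCO3 medium and 26.9 ± 4.1 TPM in controls (-1.40 ± 0.11; adjusted p = 2.83e-06). Mrm2, an rRNA methyltransferase, and Mettl17, a small-subunit assembly factor, had -1.35 and -1.11. Malsu1, which keeps the large subunit from joining too early, rose to 21.97 ± 1.48 TPM in low-NaHCO3 medium, against 9.56 ± 1.2 TPM in controls (1.13 ± 0.14; adjusted p = 6.13e-05).

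Of 13 mitochondrial translation factors 5 fell and 1 rose in low-NaHCO3 medium. The initiation factor gene Mtif3 had -1.18, the elongation factor gene Tsfm -0.97 and the release factor gene Mtrf1l -0.49, and the translational GTPase gene Guf1 rose by 0.53 on the log2 scale. Of 20 genes for tRNA charging 11 fell and 2 rose, and Gatc (-1.15), Rars2 (-0.91), Hars2 (-0.88) and Cars2 (-0.77) had the largest changes among those called. Lars2, with -0.90, missed the threshold (adjusted p = 0.0508). The median of this list, -0.56, was below the -0.20 of all genes. Of 17 tested genes of mitochondrial DNA and mRNA expression, 4 rose and 4 fell; Polg2, a subunit of the DNA polymerase, had 0.82, the poly(A) polymerase gene Mtpap 0.70, the RNA polymerase gene Polrmt -0.62 and 1110008L16Rik, the nuclease subunit of mitochondrial RNase P, -0.56. Without control 1, the falls and rises numbered 3 and 0 for the further subunits, 11 and 3 for assembly factors, 7 and 1 for translation factors, 12 and 2 for tRNA charging, and 8 and 4 for mitochondrial DNA and mRNA expression.

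The mitochondrially encoded mRNAs, which these ribosomes translate, fell in 8 of 13 and rose in none, with mt-Nd1 at -2.43 ± 0.41, mt-Nd3 at -2.40 ± 0.19, mt-Nd4l at -2.10 ± 0.22 and mt-Nd4 at -1.59 ± 0.28 (limma adjusted p = 0.000563, 3.64e-06, 2.37e-05 and 0.00068). Their share of all TPM was 10.4, 10.4 and 10.9% in low-NaHCO3 medium, against 19.7, 15.6 and 16.3% in controls. The low-NaHCO3 libraries lay below all controls. Of 9 regulators 2 rose and 1 fell. Myc, a transcription factor, rose by 0.79 ± 0.20 (limma adjusted p = 0.00581), and by 0.50 without control 1, in which it was lowest. Gabpb1, a subunit of the ETS factor GABP, rose by 0.25 ± 0.08 (limma adjusted p = 0.0228). The call of Gabpb1 was lost without low-NaHCO3 2, low-NaHCO3 3 or control 3 (limma adjusted p = 0.0508 to 0.0753). The coactivator gene Ppargc1a fell by 2.67 on the log2 scale, a value that rests on 37.9 TPM in control 1, and by 1.52 without that library (adjusted p = 9.4e-06). Without control 1, 3 regulators fell and 2 rose, and 8 of the 13 mRNAs fell.

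Under 15% CO2 no gene of these lists was called in the fit of 12 libraries, in which 1.28% of all genes rose and 0.0649% fell. With lactic acid Mettl15, a methyltransferase of the small-subunit rRNA, rose (0.70 ± 0.11; limma adjusted p = 0.0113) and Mrm2 fell (-0.73 ± 0.17; adjusted p = 0.0384). No translation factor and no gene of tRNA charging passed the test with lactic acid, where 2.47% of all genes rose and 1.52% fell. Myc rose (0.80 ± 0.20; adjusted p = 0.0481; 0.51 without control 1). Of the mitochondrially encoded mRNAs mt-Co2 rose (0.77 ± 0.17; adjusted p = 0.0357) and mt-Nd3 fell (-0.84 ± 0.19; adjusted p = 0.0363). The calls of Myc, Mrm2, Mettl15 and mt-Nd3 with lactic acid were each lost without at least 1 single library (adjusted p up to 0.148). The call of mt-Co2 was not checked in this way. Mitochondrially encoded mRNAs held 15.9, 16.4 and 27.8% of TPM in lactic acid 1, 2 and 3. The medians of the 25 assembly factors and 13 translation factors were -0.10 and 0.03 with lactic acid. Those of the 76 ribosomal protein genes and of all genes were -0.30 and -0.04. Without lactic acid 3 the median of the 76 was -0.15 (all genes, 0.00). The medians of these 2 lists in that fit, and those of the other lists, are not given, and differences between lists were not tested.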

How the data were processed

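RNA-seq libraries of 12 samples were compared in 4 labelled groups of 3. The authors deposited TPM for 21959 Ensembl genes, with columns that each sum to 1000000. Per the submitters' processing notes, the tools were fastp 0.22.0 and HISAT2 2.1.0 with build GRCm39. How reads were assigned to genes, with which annotation and with or without strand, is not given in the sources used here. Without counts the libraries' depth is unknown and no counting error can be stated.

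Gene symbols came from GENCODE M21 through the Ensembl IDs; that annotation belongs to an older build and served otherwise for transcript lengths and shared sequence. This gave a symbol to 21851 IDs, 26 of them repeats, and left 108 without one. Values were transformed as log2(TPM + 1), which understates the change of low genes. Tested were genes that reached 1 TPM in 3 or more libraries, by limma 3.58.1 in R 4.3.3 (group means of 12 libraries, eBayes with a trend, two-sided contrasts), with Benjamini-Hochberg adjustment over all genes within a contrast and a threshold of 0.05. The script was tested on simulated data.

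Members, lists, tests and naming rules were chosen with earlier results of these data known. Named were a fixed panel of 20 members, the 8 strongest called changes in each direction in low-NaHCO3 medium outside the control range, up to 5 called in each other comparison with control and 3 in each pair of treatments, the 5 highest and lowest levels, and up to 4 called genes of each other list. Other genes named were chosen after their values were seen. Alternatives were other pseudocounts, filters, scalings and variance models, the replicate number as a block, each library left out, and, chosen after seeing the data, removal of each library's trend with length and a fit without lactic acid 3, 15% CO2 3 and control 1. Replicate numbers did not pair the libraries consistently. Deviations from group means correlated at 0.46 between 15% CO2 3 and lactic acid 3. They correlated at 0.31 between 15% CO2 2 and lactic acid 2, and at 0.38 between 15% CO2 2 and lactic acid 1. Promoter windows are from RefSeq (GRCm38.p6).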

Additional observations from a re-analysis of the deposited data

How the results depend on the processing

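Values are numbers of the 76 members called and medians of their log2 changes. Calls over all genes in the same fits are given in brackets. For 15% CO2 against control, 12 libraries called 0 members (166 of 12326 genes). With control 1 left out, 12 were called with median-of-ratios scaling (1350 of 12226 genes), with a median of -0.32. In the same libraries a replicate block called 7 (864 genes) and removal of the length trend 3 (894 genes). Leaving out control 1, 15% CO2 3 and lactic acid 3 gave 12 (1609 of 12121 genes). With the length trend also removed it gave 9 (1504 genes). Lactic acid against control gave 2 without a filter (337 of 18693 genes), against 5 with 12 libraries (492 of 12326). Median-of-ratios scaling gave 9 (777 of 12326). The fit without mitochondrial and the 10 most abundant genes gave 12 (951 of 12589). The fit of 2 groups gave 0 (0 genes). Without the trend in eBayes 3 were called (436 of 12326), and with a replicate block 3 (355 of 12326). With control 1 left out, median-of-ratios scaling gave 27 (2694 of 12226) and a replicate block 27 (2287). Removal of the length trend gave 18 in those libraries (1938). With the 3 libraries left out 22 were called, and 20 with the length trend also removed (2275 of 12121 genes in each). For low-NaHCO3 medium against control, 12 libraries called 37 members (6758 of 12326 genes). The count was 33 without a filter (6420 of 18693) and 45 without mitochondrial and the 10 most abundant genes (7243 of 12589). A replicate block with control 1 left out gave 47 (7855 of 12226). Leaving out the 3 libraries gave 52 (8608 of 12121), and removing the length trend as well gave 57 (8689 of 12121). The median was -0.065 with median-of-ratios scaling (-0.14 with control 1 left out) and -0.14 with quantile normalization. It was -0.36 without mitochondrial and the 10 most abundant genes, and -0.36 with a replicate block and control 1 left out. With the length trend removed it was -0.39 with control 1 left out and -0.38 with the 3 libraries left out.

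Lactic acid against 15% CO2 gave 1 with a filter at 5 TPM (43 of 10443 genes). It gave 1 also without mitochondrial and the 10 most abundant genes (36 of 12589). The fit of 2 groups and removal of the length trend gave 1 each (115 and 38 of 12326). With control 1 left out, median-of-ratios scaling and removal of the length trend gave 3 each (820 and 578 of 12226). A replicate block gave 2 in those libraries (527). Leaving out the 3 libraries gave 4, as it did with the length trend also removed (722 and 723 of 12121). Low-NaHCO3 medium against 15% CO2 gave 49 with the 3 libraries left out (8809 of 12121 genes), with a median of -0.13. With the length trend also removed it gave 51 (8843 of 12121), with a median of -0.20. The median was 0.21 with median-of-ratios scaling (0.20 with control 1 left out) and -0.16 without mitochondrial and the 10 most abundant genes. It was -0.12 with the length trend removed, with and without control 1. Low-NaHCO3 medium against lactic acid gave 38 without mitochondrial and the 10 most abundant genes (6590 of 12589 genes). With control 1 left out it gave 40 with median-of-ratios scaling and 41 with the length trend removed (8530 and 8233 of 12226). Leaving out the 3 libraries gave 45 (8425 of 12121). With the length trend also removed it gave 46 (8499 of 12121), with a median of -0.18. The median was 0.21 with median-of-ratios scaling and 0.20 with control 1 left out as well.

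With 1 or 2 libraries left out, members called ranged from 0 to 20 for 15% CO2, 1 to 21 for lactic acid and 28 to 48 for low-NaHCO3 medium against control, and their medians from -0.34 to -0.12, -0.42 to -0.15 and -0.35 to -0.24. Among treatments they ranged from 0 to 5 (lactic acid against 15% CO2; medians -0.14 to 0.06), 19 to 52 (low-NaHCO3 medium against 15% CO2; -0.13 to 0.044) and 17 to 39 (low-NaHCO3 medium against lactic acid; -0.13 to 0.10). A group left with 1 library was taken to vary like the others.

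Signs are listed only for named genes called in the fit of 12 libraries or in the alternative. In low-NaHCO3 medium against lactic acid they turned for Mrpl18 (-0.14 with the length trend removed and control 1 left out). They also turned there for Mrpl20 (-0.23 with the 3 libraries left out and the length trend removed). With quantile normalization they turned for Mrpl32 (0.28, low-NaHCO3 medium against control) and Mrps25 (0.053, low-NaHCO3 medium against lactic acid). Other signs turned as well and are not listed. In low-NaHCO3 medium against control, 20 members were positive with 12 libraries and 34 with median-of-ratios scaling. The causes were not tested. Mrpl41, Mrpl40, Mrps27, Mrps12, Mrps6, Mrps25, Mrpl36, Mrps36 and Mrps31 kept their call in low-NaHCO3 medium against control under each of the 39 alternatives. Replicate numbers did not pair the libraries consistently, and the replicate block with 12 libraries called 0, 3 and 40 members in the 3 comparisons with control. Leaving out 1 library ended some calls against control. In low-NaHCO3 medium, Mrps18b was lost without low-NaHCO3 1 (adjusted p = 0.0611), Mrps21 without low-NaHCO3 1 or 2 or control 2 or 3 (0.0706 to 0.0916), Mrps7 without any 1 low-NaHCO3 library or control 2 or 3 (0.0727 to 0.0988), and Mrpl28 without any of those 5 or 15% CO2 1 (0.054 to 0.133). With lactic acid, Mrpl20 was lost without any 1 lactic acid library, control 2 or 3, 15% CO2 1 or low-NaHCO3 1 (0.055 to 0.0849). Mrps25, Mrpl18 and Mrpl4 were lost without any of those 7, 15% CO2 2 or low-NaHCO3 2 (0.0504 to 0.136), Mrpl18 also without 15% CO2 3 and Mrpl4 also without low-NaHCO3 3. What depth limits cannot be stated, since it is unknown.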
